A study of Mus musculus with 16 samples.

Results

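Exit from naive pluripotency in mouse embryonic stem (ES) cells was followed through 10 genes that report ERK activity in many cells: the phosphatases Dusp4 and Dusp6, the inhibitors Spry2, Spry4 and Spred1, the ETS factors Etv4 and Etv5, and the early genes Egr1, Fos and Ier3. They were chosen by symbol, as feedback regulators and immediate targets of the pathway, and make up 10 of the 27179 genes in the count table. The choice was made with earlier results of these data known, so their counts and medians beside those of all genes are a description. RNA was sequenced from 16 libraries in 8 groups of 2, which pair either of 2 maintenance media with 0, 12, 24 or 40 h after release. All cells had first grown in serum with leukaemia inhibitory factor (LIF) and were then adapted to a medium with 2i, the inhibitors PD0325901 (against MEK) and CHIR99021 (against GSK3). The first medium, 2i/LIF, was a serum-free mix of DMEM/F-12 and Neurobasal with N-2 and B-27 supplements, 2i and LIF. The second, serum/LIF+2i, was knockout DMEM with fetal bovine serum, 2i and LIF. The cells are called the serum-free arm and the serum arm after the media they were maintained in. Release removed 2i and LIF together and left no serum in either arm. The first arm kept its serum-free base after release, whereas the second also changed base, to a mix of glutamine-free DMEM and Neurobasal with both supplements and added glutamine. The change of base and the maintenance medium cannot be told apart in comparisons between the arms after release. Within an arm, removal of the MEK inhibitor cannot be told apart from that of CHIR99021 and LIF. In the serum arm it also coincides with loss of serum and the new base. The treatment text gives 12 h only for cells from 2i/LIF, and the titles, which give it for both arms, were followed. The labels name no strain or genotype.

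ERK is the last kinase of a relay from receptor tyrosine kinases through RAS, RAF and MEK, and a MEK inhibitor stops the relay one step above it. Active ERK switches on early genes such as Egr1 and Fos within minutes in many cells, lifts repression by the protein Capicua from ETS factor genes such as Etv4 and Etv5, and induces the Dusp, Spry and Spred genes whose products dampen the pathway in turn. In mouse ES cells, autocrine FGF4 is the best known activator, and ERK activity is needed to leave the naive state.

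Libraries held 5931381 to 11142744 counts. Levels are given as CPM (counts divided by library size on the usual scale) normalised with TMM factors (trimmed mean of M values), and 3 counts correspond to 0.259 to 0.517 CPM, depending on the library. Changes are log2 fold changes with standard errors (SE) from edgeR's quasi-likelihood test over 14288 genes. A gene was called at a Benjamini-Hochberg adjusted p under 0.05. Nothing in the labels says that the 2 libraries of a group came from separate cultures, so these p-values measure only the spread between them. The summed level of 5 pluripotency markers was 1400 to 2850 CPM over all libraries, with none at 0. The summed level of 5 naive markers fell from 4400 to 4710 CPM at 0 h to 105 to 138 CPM at 40 h. Markers of primitive endoderm (6 genes), trophoblast (5) and fibroblasts (6) summed to 1.78 to 21.5 CPM. The 3 mesoderm markers summed to 14.5 to 32.1 CPM at 0 h and to at most 1.76 CPM later, and 4 neural markers to 28.1 to 123 CPM, highest at 40 h in the serum arm. Postn was at 0 counts in every group, and Lum, Col1a2, Col3a1, Sox7, Foxa2, Elf5, Hand1, Mesp1 and Neurog2 in some but not all. The part of these markers in the results was not tested. In bulk RNA, fewer cells that express a gene and less of its RNA per cell cannot be told apart.

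Promoter sequence was matched from RefSeq (GRCm38.p6) for 6 of the 10 genes: Dusp6, Spry2, Spred1, Fos, Etv5 (2 start sites) and Ier3. Within 250 bases upstream of the start, both strands were searched for the octamers bound by Capicua, the repressor that ERK inactivates (TGAATGAA, TGAATGGA, TCAATGAA or TCAATGGA). Dusp6, Fos and Spry2, 3 of the 6 genes, held 1 each, compared with 3.19% of 32851 windows of the same length. All 3 matches lay on the strand opposite to the gene, so the capitals in the stretches shown here are their reverse complements. The 120 bases upstream of each start are printed because these 3 genes share the match. Dusp6 and Spry2 took different courses after release, and the few counts of Fos did not establish its course. Dusp6 lies on chr10:99263231-99267489 and its stretch on chr10:99263111-99263230, plus strand. Fos lies on chr12:85473890-85477273 and its stretch on chr12:85473770-85473889, plus strand, with a cAMP response element core (TGACGT) also in capitals. Spry2 lies on chr14:105891947-105896819 and its stretch on chr14:105896820-105896939, minus strand.
Dusp6: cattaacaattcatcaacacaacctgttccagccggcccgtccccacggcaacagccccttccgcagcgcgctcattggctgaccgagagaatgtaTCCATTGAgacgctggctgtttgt
Fos: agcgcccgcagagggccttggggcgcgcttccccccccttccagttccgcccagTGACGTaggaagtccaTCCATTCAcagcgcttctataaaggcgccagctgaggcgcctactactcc
Spry2: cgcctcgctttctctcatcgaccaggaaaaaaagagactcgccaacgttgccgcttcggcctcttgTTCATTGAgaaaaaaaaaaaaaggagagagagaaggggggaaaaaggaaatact

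The octamer began 24 bases upstream of the start in Dusp6, 50 in Fos and 54 in Spry2. Among the windows of the 6 genes, the core TGACGT occurred in that of Fos alone, and it occurred in 6.47% of all windows. The windows of the 6 genes held no match to an ETS site (CCGGAAG, 6.91% of windows) or the CArG box bound by SRF (1.47%). They also held no match to an AP-1 site (TGANTCA, 6.75%) or an EGR site (GCGNGGGCG, 4.7%). Sequence farther upstream was not searched, so any sites of these genes beyond the windows would have been missed. No motif searched had a match in the windows of Spred1, Etv5 or Ier3. The other tested genes with coordinates given here are Dusp4 (chr8:34807297-34819894), Spred1 (chr2:117121374-117182279), Etv4 (chr11:101769742-101785371), Etv5 (chr16:22381309-22439719) and Ier3 (chr17:35821684-35822923), all in GRCm38.

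The filter on low counts was passed by 9 of the 10 genes, and Fos, with 0 to 9 counts per library, did not. Egr1, Spry4 and Dusp4 passed it only through groups after release, where they were higher, so their calls against 0 h are not independent of the filter. At 12 h, 6 of the 9 were higher than at 0 h in the serum-free arm, against 21.0% of all genes tested, and 0 were lower (23.7% of all genes). In the serum arm, 6 were also higher (25.3%) and 0 lower (25.9%). In both media these 6 were Dusp4, Dusp6, Spry4, Spred1, Etv4 and Etv5. At 24 h the count was 6 in the serum-free arm (29.2%) and 8 in the serum arm (32.4%), where Spry2 and Egr1 were added. At 40 h, 7 were higher (34.1%) and 1, Spry2, was lower (34.7%) in the serum-free arm, and 7 were higher (35.3%) and 1, Etv5, was lower (35.3%) in the serum arm. The median log2 change of the 9 at 40 h was 2.69 in the serum-free arm and 3.66 in the serum arm, compared with medians of 0.0052 and -0.0032 over all genes tested. The 3 exit comparisons of a medium share its 0 h libraries.

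**Figure D1:**
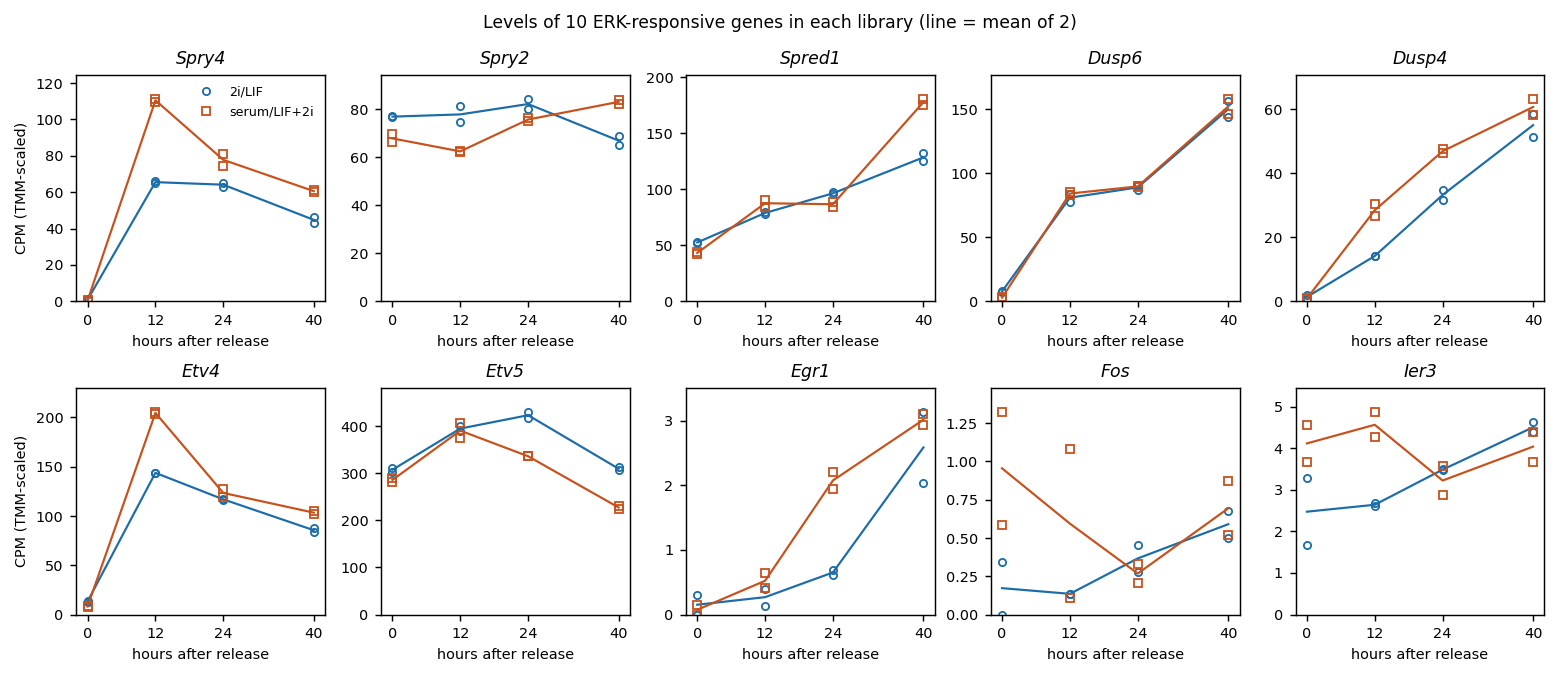
Level of each of the 10 genes in CPM (vertical axis, from 0, own scale per gene) against hours after release, with 1 symbol per library and a line through the mean of 2. Spry4 and Etv4 are highest at 12 h in both media, Dusp4 and Dusp6 are highest at 40 h, and Egr1, Fos and Ier3 stay under 5 CPM.

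Among the phosphatases, Dusp6 encodes a cytoplasmic enzyme that removes phosphate from ERK and is one of the most direct readouts of the pathway. In the serum-free arm its 2 libraries held 8.27 and 7.14 CPM at 0 h, 84.1 and 77.7 at 12 h, 90.9 and 86.9 at 24 h, and 144 and 156 at 40 h. Libraries of the serum arm held 2.50 and 3.08 CPM at 0 h, 85.6 and 82.7 at 12 h, 89.3 and 90.2 at 24 h, and 158 and 146 at 40 h. The groups of a medium did not overlap in time, while at each later time the libraries of the media interleaved. The rise came early, with a log2 change at 12 h of 3.40 ± 0.12 in the serum-free arm (adjusted p = 2.8e-53) and 4.90 ± 0.14 in the serum arm (adjusted p = 2.5e-62). Between 12 and 24 h Dusp6 moved by only 0.14 ± 0.07 (adjusted p = 0.094) and 0.10 ± 0.06 (adjusted p = 0.19), which was not called. It rose again between 24 and 40 h, by 0.75 ± 0.06 in the serum-free arm and 0.76 ± 0.05 in the serum arm (adjusted p = 2.8e-22 and 4.6e-26).

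Dusp4, which encodes a nuclear phosphatase of the same family, climbed in every interval instead. Its libraries held 0.689 and 1.97 CPM at 0 h in the serum-free arm, then 14.3 and 14.0, 31.7 and 34.8, and 58.6 and 51.5 at 12, 24 and 40 h. Serum-arm levels were 0.735 and 1.03 CPM at 0 h, then 30.4 and 26.5, 47.6 and 46.3, and 58.2 and 63.3. No group of a medium overlapped another, and at 12 and 24 h both libraries from the serum arm lay above both from the serum-free arm. The log2 change at 12 h was 3.35 ± 0.27 in the serum-free arm and 4.98 ± 0.24 in the serum arm (adjusted p = 2.6e-21 and 6.3e-39). Further rises of 1.23 ± 0.13 and 0.73 ± 0.09 followed to 24 h (adjusted p = 2.5e-15 and 2.2e-11), and of 0.73 ± 0.09 and 0.37 ± 0.08 to 40 h (adjusted p = 3.5e-11 and 1.9e-05). The starting level rests on 4 and 13 counts in the serum-free arm and 5 and 7 in the serum arm. Without replicate 2 of the serum-free arm at 0 h, the change at 12 h in the serum-free arm was 4.33, and without replicate 1 it was 2.83.

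Spry4, a Sprouty protein that restrains receptor tyrosine kinase signalling above RAF, went from near the detection limit to its highest level of the 4 times at 12 h. In the serum-free arm its libraries held 1.03 and 0.608 CPM at 0 h, 66.1 and 65.0 at 12 h, 63.0 and 65.2 at 24 h, and 46.5 and 43.1 at 40 h. For the serum arm the libraries gave 0.147 and 0.587 CPM at 0 h, 109.7 and 111 at 12 h, 74.7 and 80.9 at 24 h, and 60.2 and 61.0 at 40 h. All libraries after release lay far above those at 0 h, and those from the serum arm lay above those from the serum-free arm at each later time. The log2 change at 12 h was 6.32 ± 0.20 in the serum-free arm and 8.17 ± 0.19 in the serum arm (adjusted p = 6.1e-57 and 7.2e-71). By size it ranked 15 of 14288 genes in the serum-free arm and 1 in the serum arm. Spry4 passed the low-count filter only through groups after release, where it was high, so these ranks are not independent of the filter. Without replicate 1 of the serum arm at 0 h, which holds 1 of the 5 counts of that group, the change of Spry4 in the serum arm was 7.52, and without replicate 2 it was 9.42. The starting level rests on 10 counts summed over both libraries in the serum-free arm and 5 in the serum arm, so the ratio of summed counts, 81.1-fold and 301-fold, has 95% counting intervals of 43.9 to 170 and 129 to 929. Intervals and floors cover counting error only, since the reads carry no molecular identifiers. Spry4 then fell, in the serum arm by 0.51 ± 0.06 between 12 and 24 h (adjusted p = 2.8e-12) and by 0.36 ± 0.06 between 24 and 40 h (adjusted p = 7.9e-07). In the serum-free arm it was not called between 12 and 24 h (-0.03 ± 0.08, adjusted p = 0.78) and fell by 0.52 ± 0.08 between 24 and 40 h (adjusted p = 2.5e-08). Spry4 overlaps the small annotated genes Gm27369 and Gm27804 on the opposite strand in GENCODE, and whether counting used strand is not given in the sources used here.

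Spry2, a second Sprouty gene, was already well expressed under MEK inhibition. Its libraries in the serum-free arm held 76.7 and 77.0 CPM at 0 h, 74.4 and 81.2 at 12 h, 84.3 and 79.9 at 24 h, and 64.9 and 68.9 at 40 h. The serum-arm libraries held 69.5 and 66.1 CPM at 0 h, 62.2 and 62.6 at 12 h, 76.2 and 75.1 at 24 h, and 83.9 and 82.1 at 40 h. The media therefore ended on opposite sides of their start: in the serum-free arm both libraries at 40 h lay below all earlier ones, and in the serum arm both lay above all earlier ones. The log2 change at 40 h was -0.20 ± 0.07 in the serum-free arm (adjusted p = 0.0085) and 0.29 ± 0.06 in the serum arm (adjusted p = 3.3e-05). The call in the serum-free arm was lost without replicate 1 of the serum-free arm at 40 h (-0.16, adjusted p = 0.095) and by DESeq2 (adjusted p = 0.068), with library size only (0.087) and with the filter at a mean of 5 CPM (0.058). At 12 h neither change was called (0.02 ± 0.07 and -0.12 ± 0.07, adjusted p = 0.86 and 0.15). At 24 h the change was 0.10 ± 0.07 in the serum-free arm (adjusted p = 0.23) and 0.16 ± 0.07 in the serum arm (adjusted p = 0.033). The latter call was lost by DESeq2 (adjusted p = 0.088) and without replicate 2 of the serum arm at 0 h (0.17) or replicate 1 (0.11) or 2 (0.072) of the serum arm at 24 h.

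Spred1, which brings the RAS inactivator neurofibromin to the membrane, rose from a level that was also substantial at 0 h. Its libraries held 52.4 and 52.6 CPM at 0 h in the serum-free arm, 77.8 and 79.8 at 12 h, 95.5 and 97.3 at 24 h, and 125 and 132 at 40 h. Libraries of the serum arm held 42.5 and 43.8 CPM at 0 h, 84.5 and 90.6 at 12 h, 89.0 and 84.3 at 24 h, and 175 and 181 at 40 h. The serum-free-arm libraries formed 4 separate steps, whereas those from the serum arm at 12 and 24 h overlapped. The log2 change at 12 h was 0.59 ± 0.07 in the serum-free arm and 1.03 ± 0.07 in the serum arm (adjusted p = 8.4e-12 and 4e-26). At 40 h it reached 1.29 ± 0.07 and 2.04 ± 0.06 (adjusted p = 4.6e-37 and 4e-59). In the serum arm the second rise fell wholly between 24 and 40 h, at 1.04 ± 0.05 (adjusted p = 1.5e-38), after -0.02 ± 0.06 between 12 and 24 h (adjusted p = 0.81).

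**Figure D2:**
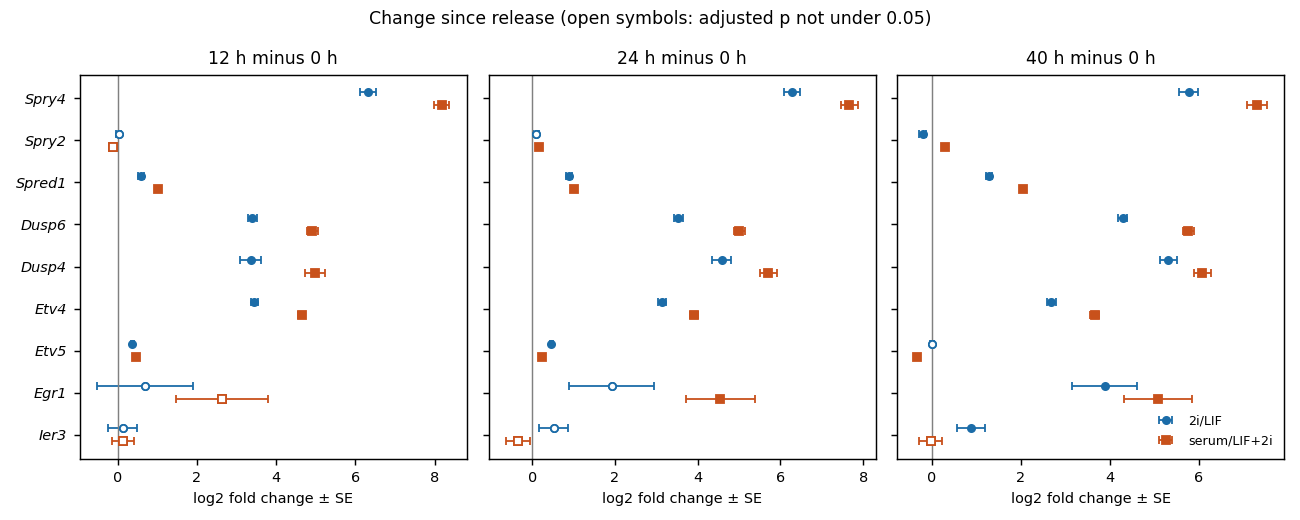
Log2 fold change from 0 h (horizontal axis, with SE) of the 9 genes tested at 12, 24 and 40 h, circles for 2i/LIF and squares for serum/LIF+2i, open where the change was not called. Spry4 lies farthest right in every panel, and Spry2 and Etv5 stay within 0.5 of 0.

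The ETS factors Etv4 and Etv5 are close relatives with largely shared targets, yet their courses differed. Etv4 libraries in the serum-free arm held 13.1 and 13.4 CPM at 0 h, 143 and 144 at 12 h, 118 and 116 at 24 h, and 83.4 and 87.8 at 40 h. Serum-arm levels were 9.11 and 7.20 CPM at 0 h, 205 and 204 at 12 h, 119.6 and 127 at 24 h, and 102 and 105 at 40 h. Every group of a medium stood apart from the others, with 12 h highest and 0 h lowest. The log2 change at 12 h was 3.44 ± 0.09 in the serum-free arm and 4.65 ± 0.09 in the serum arm (adjusted p = 5.5e-66 and 6.5e-80). Etv4 then fell to 24 h (-0.30 ± 0.05 and -0.73 ± 0.05, adjusted p = 3.1e-06 and 2.3e-27), and again to 40 h (-0.45 ± 0.06 and -0.26 ± 0.05, adjusted p = 9.9e-11 and 9.6e-06). At 40 h it was still 2.69 ± 0.10 and 3.66 ± 0.10 above its start on the log2 scale (adjusted p = 1.4e-51 and 5.3e-65).

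Etv5 was abundant from the start and changed little in proportion. Its libraries in the serum-free arm held 311 and 303 CPM at 0 h, 401 and 389 at 12 h, 417 and 429.8 at 24 h, and 313 and 306 at 40 h. For the serum arm the libraries gave 282 and 289 CPM at 0 h, 375 and 406 at 12 h, 336 and 336 at 24 h, and 229.7 and 225 at 40 h. In the serum-free arm the libraries at 40 h overlapped those at 0 h, and in the serum arm they lay below them. The log2 change was 0.36 ± 0.04 at 12 h and 0.46 ± 0.04 at 24 h in the serum-free arm (adjusted p = 8.5e-14 and 1.1e-19), and 0.01 ± 0.04 at 40 h (adjusted p = 0.81). In the serum arm it was 0.45 ± 0.04 at 12 h (adjusted p = 2.9e-19), 0.23 ± 0.04 at 24 h (adjusted p = 1.7e-07) and -0.33 ± 0.04 at 40 h (adjusted p = 2.9e-12). Etv5 thus fell by 0.45 ± 0.04 in the serum-free arm and by 0.56 ± 0.04 in the serum arm between 24 and 40 h (adjusted p = 3.5e-19 and 6.2e-26), the same interval in which Dusp4, Dusp6 and Spred1 rose.

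The early genes Egr1, a zinc finger factor, and Fos, a subunit of AP-1, stayed near the limit of detection. Egr1 libraries held 0 and 0.304 CPM at 0 h in the serum-free arm, 0.137 and 0.401 at 12 h, 0.694 and 0.608 at 24 h, and 3.13 and 2.04 at 40 h. The serum-arm libraries held 0 and 0.147 CPM at 0 h, 0.405 and 0.639 at 12 h, 2.21 and 1.94 at 24 h, and 2.93 and 3.10 at 40 h. At 40 h both media lay above their earlier libraries, and at 24 h both serum-arm libraries lay above both from the serum-free arm. With only 2 counts at 0 h in the serum-free arm and 40 at 40 h, the ratio scaled to library size was 16.1, with a 95% counting interval of 4.19 to 138. In the serum arm 1 count at 0 h and 66 at 40 h gave 41.0, with an interval of 7.10 to 1640. The rise at 40 h was called in both media (adjusted p = 1.2e-06 and 2.3e-09), that at 24 h in the serum arm (adjusted p = 1.1e-06) and not in the serum-free arm (0.097), and that at 12 h in neither (adjusted p = 0.68 and 0.052). Egr1 passed the low-count filter only through its libraries at 40 h and, in the serum arm, at 24 h, where it was high. These calls are therefore not independent of the filter. Without replicate 2 of the serum-free arm at 0 h, which holds both counts of that group, the 24 h change in the serum-free arm was called (adjusted p = 0.042).

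Fos libraries held 0.345 and 0 CPM at 0 h in the serum-free arm, 0.137 and 0.134 at 12 h, 0.278 and 0.456 at 24 h, and 0.501 and 0.679 at 40 h. Libraries of the serum arm held 1.32 and 0.587 CPM at 0 h, 1.08 and 0.106 at 12 h, 0.332 and 0.204 at 24 h, and 0.517 and 0.871 at 40 h. No rise of Fos at 12 h was detectable at this depth. Its highest level was in the serum arm at 0 h, where 13 counts against 2 in the serum-free arm gave a ratio of 5.91 (95% counting interval 1.34 to 54.0). In the fit without the low-count filter this difference was not called (adjusted p = 0.068), nor was any other comparison of Fos, the smallest adjusted p being 0.063 for the change at 24 h in the serum arm.

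Ier3, an early response gene whose product can prolong ERK phosphorylation, was also low. Its libraries held 3.27 and 1.67 CPM at 0 h in the serum-free arm, 2.60 and 2.67 at 12 h, 3.47 and 3.50 at 24 h, and 4.38 and 4.62 at 40 h. Serum-arm levels were 4.55 and 3.67 CPM at 0 h, 4.87 and 4.26 at 12 h, 2.88 and 3.57 at 24 h, and 4.40 and 3.68 at 40 h. In the serum-free arm both libraries at 40 h lay above all earlier ones, while the serum-arm groups overlapped except that both 24 h libraries lay below the rest. The change at 40 h was 0.89 ± 0.32 in the serum-free arm (adjusted p = 0.011) and -0.02 ± 0.27 in the serum arm (adjusted p = 0.95). Without replicate 2 of the serum-free arm at 0 h the former was 0.46 (adjusted p = 0.30). No change of Ier3 at 12 or 24 h was called in either medium (adjusted p of 0.20 to 0.82).

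**Figure D3:**
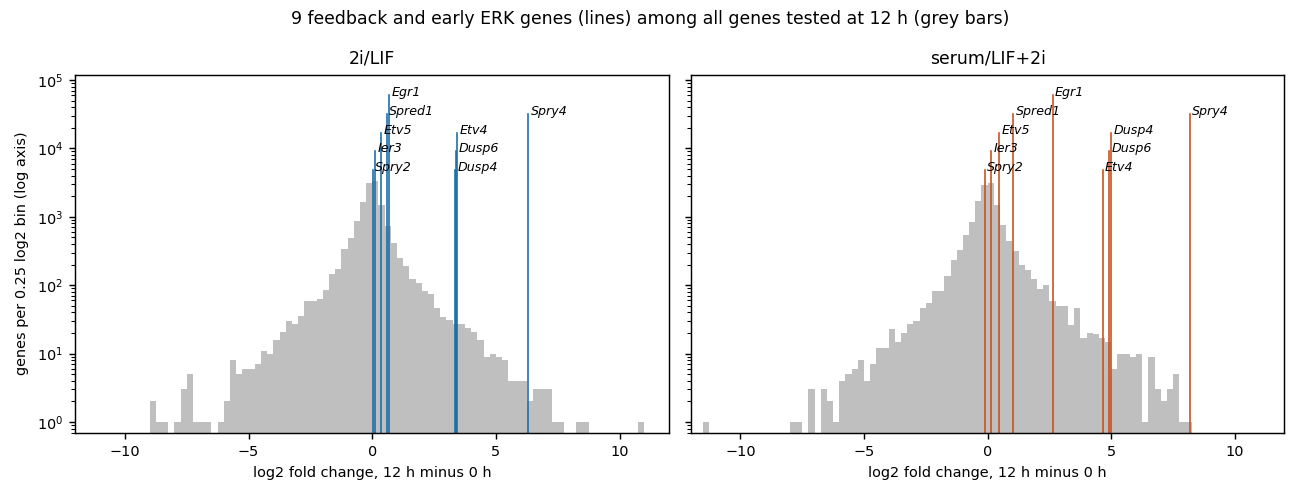
Number of genes (log axis) by log2 fold change from 0 to 12 h, in bins of 0.25, over 14288 genes tested (grey bars), with lines at the 9 ERK genes tested, for each medium. Spry4 lies at the right end of the distribution in serum/LIF+2i, Dusp4, Dusp6 and Etv4 lie in its right tail in both media, and Spry2 and Ier3 lie at its centre.

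The intervals after 12 h were tested in the same fit. Between 12 and 24 h in the serum-free arm, 3 rose (Dusp4, Spred1 and Etv5, against 17.4% of all genes) and 1, Etv4, fell (17.7%). In the serum arm, 3 rose (Dusp4, Spry2 and Egr1, 24.2%) and 3 fell (Spry4, Etv4 and Etv5, 24.2%). Between 24 and 40 h, Dusp4, Dusp6, Spred1 and Egr1 rose in the serum-free arm (4 genes, against 22.2%), and Spry2, Spry4, Etv4 and Etv5 fell (4, against 24.5%). In the serum arm, Dusp4, Dusp6, Spry2 and Spred1 rose in that interval (4, against 25.9%), and Spry4, Etv4 and Etv5 fell (3, against 24.6%). Egr1 passed the low-count filter only through groups where it was high, so its calls in these intervals are not independent of the filter. Some calls in these intervals were lost when single libraries were left out. The rise of Etv5 between 12 and 24 h in the serum-free arm (0.10 ± 0.04, adjusted p = 0.035) was lost when any of 9 libraries was left out, with an adjusted p of up to 0.30 without replicate 2 of the serum-free arm at 12 h. The rise of Spry2 between 24 and 40 h in the serum arm (0.13 ± 0.06, adjusted p = 0.049) was lost without any of 14 libraries, with an adjusted p of up to 0.24 without replicate 1 of the serum arm at 40 h. DESeq2 called neither (adjusted p = 0.14 and 0.15).

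The maintenance media were then compared at each time, as the level in the serum arm over that in the serum-free arm. While 2i was present, 5 of the 9 genes were lower in the serum arm, against 18.4% of all genes, and none was higher. Of all genes tested, 33% were called in this comparison, and 44.3% of those were higher. Dusp6 differed most, at -1.45 ± 0.26 on the log2 scale (adjusted p = 1.3e-06), from 38 counts over both libraries in the serum arm and 95 in the serum-free arm. Etv4 followed at -0.70 ± 0.17 (adjusted p = 0.00045) and Spred1 at -0.28 ± 0.08 (adjusted p = 0.0045). The differences of Spry2 (-0.18 ± 0.07, adjusted p = 0.042) and Etv5 (-0.10 ± 0.04, adjusted p = 0.043) were lost in 6 of the 8 other ways of processing, DESeq2 among them (adjusted p = 0.14 and 0.12). Leaving out any of 4 libraries ended the call of Spry2 (adjusted p of up to 0.21, without replicate 2 of the serum arm at 0 h), and any of 7 that of Etv5 (up to 0.21, without replicate 1 of the serum arm at 0 h). Dusp4 (-0.63 ± 0.54), Spry4 (-1.10 ± 0.73) and Egr1 (-0.99 ± 1.59) were not called (adjusted p = 0.40, 0.26 and 0.68), and Ier3 was 0.76 ± 0.34 (adjusted p = 0.073). Without replicate 1 of the serum-free arm at 0 h, Ier3 was called at 1.28 (adjusted p = 0.025).

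At 12 h after 2i and LIF were removed, 5 genes were higher in the serum arm (14.8% of all genes), namely Dusp4 (1.00 ± 0.13, adjusted p = 4.5e-11), Spry4 (0.76 ± 0.07, 9.4e-19), Etv4 (0.51 ± 0.05, 2.7e-16), Ier3 (0.78 ± 0.30, 0.036) and Spred1 (0.16 ± 0.06, 0.046). Spry2 was lower (-0.32 ± 0.07, adjusted p = 7.7e-05), 1 gene against 15.5%. The Spred1 call was lost without any of 11 libraries (adjusted p of up to 0.41, without replicate 2 of the serum arm at 12 h), that of Ier3 without any of the 4 libraries at 12 h (0.070 to 0.15), and both by DESeq2 (0.18 and 0.15). Dusp6, the gene with the widest gap at 0 h, differed by 0.05 ± 0.06 at 12 h (adjusted p = 0.56), 0.01 ± 0.06 at 24 h (0.91) and 0.02 ± 0.05 at 40 h (0.78).

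At 24 h, Dusp4 (0.50 ± 0.09, adjusted p = 6.5e-06), Spry4 (0.28 ± 0.07, 0.00073) and Egr1 (1.64 ± 0.52, 0.010) were higher in the serum arm (3 genes, 14.1%). The Egr1 call is not independent of the low-count filter, which Egr1 passed only through groups where it was high. Etv5 (-0.33 ± 0.04, adjusted p = 2.1e-12) and Spred1 (-0.15 ± 0.06, 0.037) were lower (2 genes, 17.0%). The Spry4 call was lost without replicate 2 of the serum arm at 24 h (0.22, adjusted p = 0.053). That of Egr1 was lost by DESeq2 (0.083) and without either serum-free-arm library at 24 h (0.066 and 0.079) or replicate 1 of the serum arm at 24 h (0.057), and that of Spred1 without any of 11 libraries (up to 0.28, without replicate 2 of the serum arm at 24 h) and in 5 of the 8 other ways of processing, DESeq2 among them (0.20). At 40 h, Spred1 (0.47 ± 0.05, adjusted p = 1.9e-14), Spry4 (0.43 ± 0.08, 1.3e-06), Spry2 (0.31 ± 0.06, 3.6e-05) and Etv4 (0.27 ± 0.06, 5.7e-05) were higher (4 genes, 13.9%), and Etv5 was lower (-0.45 ± 0.04, 7.2e-18; 1 gene, 13.4%). Dusp4 was not called at 40 h (0.14 ± 0.08, adjusted p = 0.19).

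**Figure D4:**
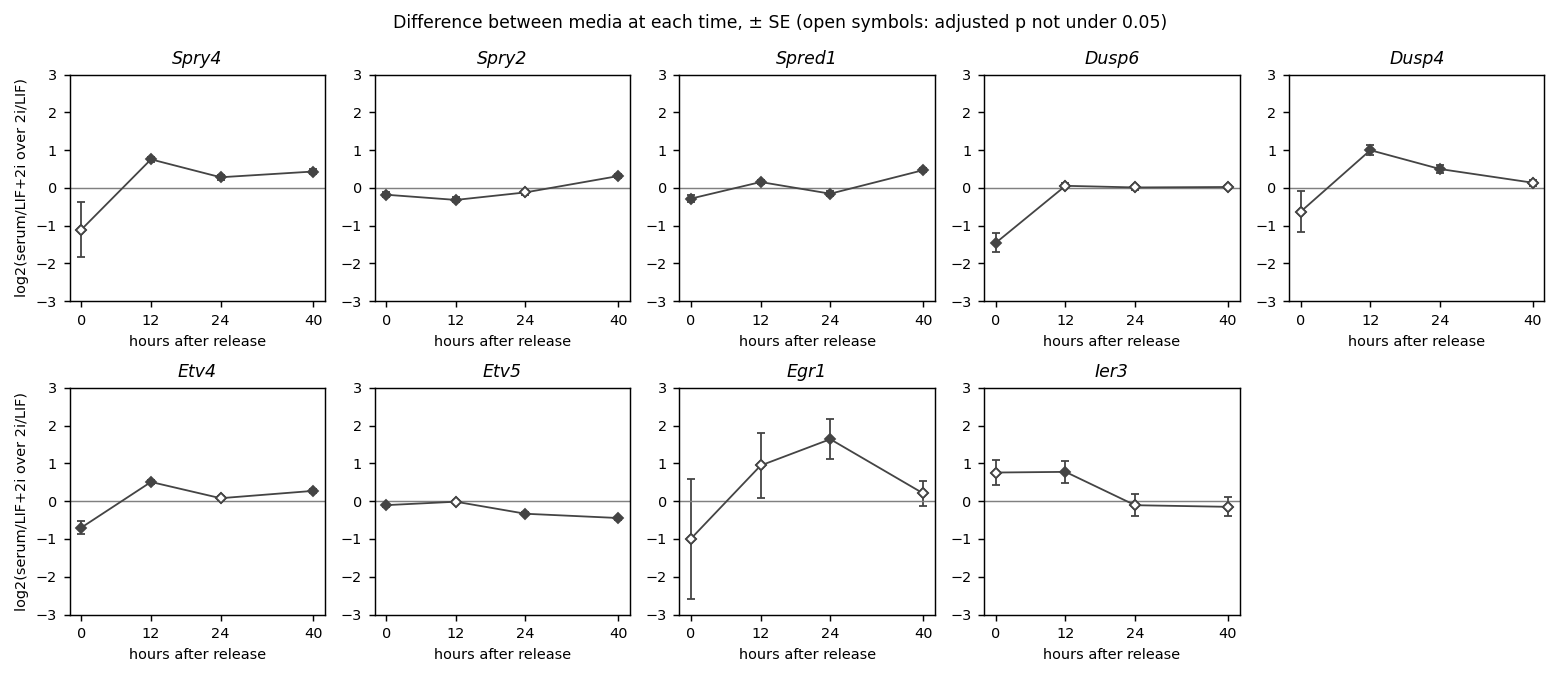
Log2 ratio of serum/LIF+2i over 2i/LIF (vertical axis, with SE) at 0, 12, 24 and 40 h after release for the 9 genes tested, open where not called. Dusp6 lies at -1.45 at 0 h and within 0.1 of 0 afterwards, Etv5 goes down after 12 h, and Dusp4 and Spry4 peak at 12 h.

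Whether the change since 0 h itself differed between the media was tested by an interaction term. At 12 h, 4 of the 9 genes rose more in the serum arm, against 4.80% of all genes: Dusp6 (1.51 ± 0.26, adjusted p = 6.6e-06), Etv4 (1.21 ± 0.17, 3e-08), Spred1 (0.44 ± 0.10, 0.0016) and Dusp4 (1.63 ± 0.56, 0.048). For Dusp4 the call was lost without any of 9 libraries. Without replicate 2 of the serum-free arm at 0 h, which holds 13 of the 17 counts of that group, its value was 0.65 (adjusted p = 0.78), and DESeq2 gave an adjusted p of 0.067. For Dusp6 the difference between media was -1.45 at 0 h and 0.05 at 12 h. For Etv4 and Spred1 both the start was lower and the level at 12 h higher in the serum arm. At 24 h the interaction was called for Dusp6 (1.47 ± 0.26, adjusted p = 4.3e-06) and Etv4 (0.78 ± 0.18, 0.00028), 2 genes against 9.77%, and for Etv5 in the other direction (-0.23 ± 0.06, 0.0012; 1 gene, 11.0%). At 40 h, Dusp6 (1.48 ± 0.26, adjusted p = 2.1e-06), Etv4 (0.97 ± 0.18, 3.7e-06), Spred1 (0.75 ± 0.10, 1.7e-10) and Spry2 (0.49 ± 0.10, 1.6e-05) were higher (4 genes, 14.8%), and Etv5 was lower (-0.34 ± 0.06, 8.5e-07; 1 gene, 12.8%). Spry4 was not called at any time (1.86 ± 0.74, 1.39 ± 0.73 and 1.54 ± 0.74, adjusted p = 0.10, 0.19 and 0.11), with 10 and 5 counts in its groups at 0 h. Without replicate 1 of the serum-free arm at 0 h, interactions were also called for Dusp4 at 24 h (1.67, adjusted p = 0.039, against 1.13 ± 0.55 and 0.14 with it) and for Ier3 at 40 h (-1.44, adjusted p = 0.033, against -0.91 ± 0.42 and 0.10).

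Per kilobase of gene length as deposited, the order of the genes changed with time. Etv5 led in every group, from 80.4 CPM per kb at 0 h to 81.0 at 40 h in the serum-free arm and from 74.8 to 59.5 in the serum arm. At 0 h it was followed by Spry2 (36.8 and 32.5 CPM per kb) and Spred1 (17.5 and 14.4). By 12 h Etv4 had become the second gene, at 61.6 CPM per kb in the serum-free arm and 87.6 in the serum arm. At 40 h the second place was held by Dusp6 in the serum-free arm (53.6 CPM per kb) and by Spred1 in the serum arm (59.3), where Spred1 was level with Etv5 within the spread of the libraries. Egr1 and Fos stayed under 1 CPM per kb in every group, at most 0.981 and 0.456. The summed level of the 10 genes went from 463 to 859, 909 and 848 CPM at 0, 12, 24 and 40 h in the serum-free arm, and from 414 to 974, 842 and 873 in the serum arm.

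The courses were also compared over the 8 group means of log2 CPM, as a description. Spry4 and Etv4 ran closely together (Pearson r = 0.993), as did Dusp4 and Dusp6 (0.974), whereas r was 0.424 for Etv4 and Etv5 and 0.109 for Spry2 and Spry4. Of 2984 other genes averaging 10 CPM or more with a range of at least 1 log2 unit, the most alike to Spry4 were Sema5b (0.989) and Snx24 (0.988), and to Etv4 Slco4a1 (0.994) and Sema5b (0.992). For Dusp4 they were Timm21 (0.997) and Mkrn1 (0.996), for Dusp6 Spata13 (0.990) and Ap4s1 (0.987), and for Spred1 F2rl1 (0.984) and Magi1 (0.975). Egr1 was closest to Mthfd2 (0.998) and Chac1 (0.985), Etv5 to Castor1 (0.965) and Tcf7l1 (0.944), and Ier3 to Aldh9a1 (0.909) and Pecr (0.899). Spry2 had no close match (Fam129a, 0.812, and BC067074, 0.784). For Fos (Celsr3, 0.945, and Ldha, 0.914), and likewise for Egr1, the few counts limit what r can show. All points share the same 16 libraries.

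The other known feedback inhibitors of the pathway moved in both directions. Of 19 tested in the serum-free arm at 40 h, 10 were higher and 4 lower, against 34.1% and 34.7% of all genes. The serum arm had 12 higher and 5 lower, against 35.3% in each direction, with medians of 0.30 and 0.35 on the log2 scale. Dusp9, a further ERK phosphatase, rose by 2.56 ± 0.09 and 2.96 ± 0.09 in log2, from 20.6 and 13.4 CPM at 0 h (adjusted p = 5.5e-55 and 9.1e-59). Spred3 rose by 2.80 ± 0.15 and 3.50 ± 0.14 (adjusted p = 1.7e-35 and 1.1e-48). Il17rd, which encodes the FGF antagonist Sef, fell (log2 changes of -1.03 ± 0.07 and -0.72 ± 0.06, adjusted p = 2.3e-29 and 1.2e-19), and the phosphatase gene Dusp14 fell (-1.96 ± 0.14 and -1.29 ± 0.14, adjusted p = 5.2e-26 and 8.8e-16). The change at 40 h was larger in the serum arm for Spred2 (interaction 0.60 ± 0.10, adjusted p = 3.2e-07) and for Nf1, which encodes neurofibromin (0.52 ± 0.10, 2.4e-05). In all, 6 of the 19 had a higher and 3 a lower interaction, against 14.8% and 12.8% of all genes. DESeq2 called 3 of them higher and 1 lower, and over all genes 1306 higher and 1091 lower.

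Of 27 other immediate early genes tested among 33 in the table, 13 were higher and 8 lower at 40 h in each medium. The shares of all genes were 34.1% and 34.7% in the serum-free arm and 35.3% in each direction in the serum arm, so the count of lower genes was near the background. The list had medians of 0.34 in the serum-free arm and 0.17 in the serum arm. Myc rose by 2.69 ± 0.12 in the serum-free arm, from 8.82 to 57.2 CPM, and by 4.0 ± 0.11 in the serum arm, from 6.24 to 100.1 CPM (interaction 1.30 ± 0.22, adjusted p = 8.8e-07). The survival gene Mcl1 rose by 0.84 ± 0.04 and 0.96 ± 0.04 (adjusted p = 3.9e-40 and 7.9e-46), and Srf, whose product binds the CArG box, by 1.35 ± 0.08 and 1.06 ± 0.07 (adjusted p = 6.3e-33 and 8.2e-28). The nuclear receptor gene Nr4a1 fell (-1.94 ± 0.12 and -1.99 ± 0.12, adjusted p = 5e-29 and 1.4e-32). Ccn1, a secreted matrix protein, fell in the serum arm by 2.20 ± 0.17 (adjusted p = 4.3e-23) and was -0.32 ± 0.20 in the serum-free arm (0.15), with an interaction of -1.88 ± 0.27 (adjusted p = 6.4e-09). Without replicate 2 of the serum-free arm at 40 h the change of Ccn1 in the serum-free arm was -0.62 and was called (adjusted p = 0.025).

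Among 33 genes of the cascade itself and its nuclear effectors, 12 were higher and 13 lower at 40 h in the serum-free arm, near the 34.1% and 34.7% of all genes. The serum arm had 18 higher and 11 lower, against 35.3% in each direction, and the medians were 0.01 and 0.22. The RAF kinase gene Braf rose by 1.33 ± 0.06 and 1.18 ± 0.06 (adjusted p = 8.7e-39 and 8.4e-38). Cic, which encodes Capicua, fell by 1.00 ± 0.05 in the serum-free arm, from 263 to 131 CPM, and by 0.41 ± 0.05 in the serum arm, from 189 to 142 CPM (adjusted p = 8e-40 and 1.2e-13; interaction 0.60 ± 0.07, 8.7e-13). The ETS repressor gene Elk3 fell (-3.90 ± 0.25 and -2.43 ± 0.21, adjusted p = 6.6e-29 and 4.8e-20). Erf, an ETS repressor that ERK exports from the nucleus, fell by 0.48 ± 0.05 in the serum-free arm (adjusted p = 2.4e-14) and rose by 0.29 ± 0.05 in the serum arm (1.1e-07), with an interaction of 0.76 ± 0.07 (adjusted p = 1.2e-16).

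Of 17 ligands and receptors tested that feed the pathway, 8 were higher and 5 lower at 40 h in the serum-free arm (34.1% and 34.7% of all genes), and 8 and 4 in the serum arm (35.3% in each direction), with medians of 0.54 and 0.14. Fgf4, the autocrine ligand, stood at 293, 397, 431 and 205 CPM at 0, 12, 24 and 40 h in the serum-free arm, and at 320, 361, 386 and 131 CPM in the serum arm. Its change at 40 h was -0.52 ± 0.04 and -1.28 ± 0.04 (adjusted p = 3.4e-20 and 1e-52; interaction -0.77 ± 0.06, 5e-20). Fgfr2 rose by 3.96 ± 0.24 and 3.73 ± 0.23 (adjusted p = 5.4e-31 in each), and the receptor gene Kit fell (-3.41 ± 0.06 and -3.15 ± 0.05, adjusted p = 1.7e-87 and 1.5e-87). Fgf5, a marker of the primed epiblast, went from 0.0862 CPM at 0 h to 17.2 CPM at 40 h in the serum-free arm, and from 0 to 3.17 CPM in the serum arm. Fgf15 went from 0.228 to 12.1 CPM and from 0.147 to 7.61 CPM. The decoy receptor gene Fgfrl1 fell by 0.76 ± 0.14 in the serum-free arm (adjusted p = 1.9e-06) and was 0.14 ± 0.16 in the serum arm (0.43), with an interaction of 0.90 ± 0.21 (adjusted p = 0.00049).

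Early genes can also respond to handling and heat, so 13 genes of those responses were examined. Their summed level was 2520 to 3270 CPM over all libraries, with none at 0. At 12 h, when Spry4 and Etv4 were highest, 7 of the 13 were higher and 2 lower in the serum-free arm, against 21.0% and 23.7% of all genes, and 8 and 2 in the serum arm, against 25.3% and 25.9%. At 40 h, 4 were higher and 6 lower in the serum-free arm (34.1% and 34.7% of all genes) and 6 and 6 in the serum arm (35.3% in each direction), with medians of -0.09 and -0.08. Gadd45g, a growth arrest gene, rose by 6.97 ± 0.31 and 6.63 ± 0.28, Gadd45a by 4.22 ± 0.15 and 4.33 ± 0.13, while Gadd45b fell (-3.93 ± 0.19 and -4.96 ± 0.20). The heat shock gene Hspb1 fell (-1.99 ± 0.07 and -1.79 ± 0.06). Ddit3, which encodes the stress factor CHOP, rose by 0.66 ± 0.15 in the serum-free arm and 2.39 ± 0.13 in the serum arm, with an interaction of 1.74 ± 0.22 (adjusted p = 1e-09), and Hmox1 by 0.94 ± 0.06 and 1.56 ± 0.06, with an interaction of 0.62 ± 0.09 (2.2e-09). Without replicate 2 of the serum-free arm at 40 h the change of Ddit3 in the serum-free arm was 0.30 (adjusted p = 0.12). Without replicate 1 of the serum arm at 0 h the change of Gadd45a in the serum arm was 5.0. The part of handling in the levels of the ERK genes was not tested.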

How the data were processed

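RNA of mouse ES cells was extracted with TRIzol and made into stranded poly(A) libraries (TruSeq Stranded mRNA kit), per the labels' protocols. Reads were processed with fastp, STAR and featureCounts on mm10, per the submitters' processing notes; versions, annotation and strand setting are not given in the sources used here. The authors deposited whole-number counts per gene that are not normalized, with an Entrez identifier, symbol and gene length, per the file headers. Every column of values belonged to a sample, so 0 were set aside. Groups and replicate numbers come from the sample titles.

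Genes were filtered with edgeR's filterByExpr (minimum count 10, minimum total 15), which left 14288, and library sizes were scaled by TMM. All 16 libraries were fitted in 1 model with a term per group and 8 residual degrees of freedom (edgeR 4.0.16, glmQLFit with robust estimation), and 17 comparisons were tested with two-sided quasi-likelihood F tests adjusted by Benjamini-Hochberg over all genes. The SE is the log2 change divided by the square root of F. The common biological coefficient of variation was 3.19%. Replicates differed by more than sampling noise in every group (chi-square per degree of freedom 1.39 to 5.42), and ribosomal RNA genes took 0.468% to 1.77% of counts. The procedure was also run on simulated data with known changes in a small share of genes, in a single group. Far more genes were called in these data, so that run cannot show how the tests perform here.

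The 10 genes and all lists were chosen with earlier results of these data known. Levels of all 10 are given for every library, while the test values of some comparisons are left out, called or not. From each other list up to 4 genes with the smallest adjusted p at 40 h in 2i/LIF and up to 2 in the 40 h interaction are named, and for likeness the 2 genes with the highest r. Alternatives were DESeq2 (version 1.42.0), its size factors, library size only, no low-count filter, a mean of at least 5 CPM, a replicate block, no ribosomal RNA genes, only the groups compared, and leaving out each library. A gene that this rule would name is not reported here.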

Additional observations from a re-analysis of the deposited data

Results flagged for a closer look

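The results below are those where the change since release differed between the media by the interaction test, given as log2 differences, serum/LIF+2i minus 2i/LIF. Dusp6 was 1.51, 1.47 and 1.48 at 12, 24 and 40 h, and Etv4 was 1.21, 0.78 and 0.97. The level of Dusp6 differed between the media by -1.45 at 0 h and by 0.05, 0.01 and 0.02 at 12, 24 and 40 h. All interactions share the same libraries at 0 h. Spred1 was 0.44 at 12 h and 0.75 at 40 h, Spry2 was 0.49 at 40 h, and Dusp4 was 1.63 at 12 h. Etv5 was -0.23 at 24 h and -0.34 at 40 h.

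Among the other pathway genes at 40 h, Spred2 was 0.60, Nf1 0.52, Myc 1.30, Erf 0.76, Cic 0.60 and Fgfrl1 0.90. Ccn1 was -1.88 and Fgf4 was -0.77. Of the handling and stress genes, Ddit3 was 1.74 and Hmox1 was 0.62.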

How the results depend on the processing

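For the 9 genes tested, 153 results were recomputed under 24 alternatives, giving 3629 values. Of these, 3478 kept their direction and their side of the threshold, 114 lost the call, 4 gained it and 33 changed sign. No call of Dusp6 or Etv4 in the exit or interaction comparisons was among those lost. For 66 results of the other named genes, 1580 of 1584 values kept both. Results that changed sign had not been called. With DESeq2 size factors, Ier3 at 40 h in serum/LIF+2i was 0.0034. With library size only it was 0.057, Spred1 between 12 and 24 h in serum/LIF+2i was 0.013, the 12 h interaction of Ier3 was -0.00016 and Nf1 at 40 h in 2i/LIF was 0.0042. Without ribosomal RNA genes the 12 h interaction of Ier3 was -0.012. The cause was not tested.

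At 0 h, 3 rather than 5 of the genes differed between media with library size only, with no low-count filter, at a mean of at least 5 CPM, without ribosomal RNA genes, with only the groups compared, and by DESeq2. The filter at a mean of 5 CPM, which removes Egr1 and Ier3, left 5 calls at 40 h in 2i/LIF rather than 8, and DESeq2 gave 3 rather than 5 between media at 24 h. Over all genes, DESeq2 called 3097, 2668, 2717 and 2005 between media at 0, 12, 24 and 40 h, against 4710, 4334, 4439 and 3897, and 576, 1764 and 2397 in the interactions, against 1315, 2966 and 3940.

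Leaving out each library in turn gave 3 to 5 of the genes between media at 0 h and 3 to 5 at 24 h, and 2240 to 4074 genes in all at 40 h. The lowest of these was without replicate 1 of 2i/LIF at 40 h. Uncalled results that changed sign ranged, at 12 h in 2i/LIF, from -0.21 to 4.21 for Egr1, -0.31 to 0.65 for Ier3 and -0.044 to 0.078 for Spry2. Ier3 ranged from -0.0023 to 0.30 at 12 h and -0.17 to 0.14 at 40 h in serum/LIF+2i. Etv5 at 40 h in 2i/LIF ranged from -0.0073 to 0.028, Nf1 from -0.14 to 0.0057, and Spred1 between 12 and 24 h in serum/LIF+2i from -0.064 to 0.034. Between media, the ranges were -1.16 to 0.34 for Dusp4 and -3.51 to 2.52 for Egr1 at 0 h, -0.0054 to 0.11 for Dusp6 and -0.077 to 0.044 for Etv5 at 12 h, -0.020 to 0.044 for Dusp6 and -0.28 to 0.034 for Ier3 at 24 h, and -0.040 to 0.084 for Dusp6 and -0.058 to 0.56 for Egr1 at 40 h. Interactions ranged from -1.57 to 4.46 for Egr1 and -0.51 to 0.45 for Ier3 at 12 h, -0.87 to 5.16 for Egr1 at 24 h, and -0.21 to 1.29 for Dusp4 and -2.31 to 3.71 for Egr1 at 40 h.

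No shared effect of the replicate number was seen, with same-numbered deviations correlated at -0.023 to 0.0331 over 28 pairs of groups. This cannot show whether the libraries were paired, and the labels do not say. The replicate block changed no call of the genes, with 8 of them called at 40 h in each arm as without it. With few counts at 0 h, the precision for Egr1, Fos, Spry4 and Dusp4 is limited by depth.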
